A study of Mus musculus with 17 samples.

Results

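Whole blood DNA of 5 old mice kept under caloric restriction (CR-old) was compared with that of 5 young mice fed ad libitum (AL-young), site by site, to describe which methylation differences from young animals were present in restricted animals of advanced age. These are 10 of the 17 C57BL/6 mice of the study, an inbred laboratory strain. The AL-young mice were all 4 months old, with 2 females and 3 males. The CR-old mice were 32 to 38 months old, also with 2 females and 3 males, and both females were 32 months old. According to the study's methods, the mice came from a colony of the National Institute on Aging. The study describes the restriction as begun early in adult life. The 7 old mice fed ad libitum (AL-old, 29 to 33 months, 5 females and 2 males) are shown beside them and enter no main test. Because both age and diet differ between CR-old and AL-young mice, their parts in any difference cannot be told apart. An autosomal CCCGGG site was used when it had 100 reads or more in 75% or more of the 10 mice, which kept 16906 of 173449 sites. Of these, 15641 sites had 100 reads in all 10 mice, while 475 sites had them in 8 mice, the fewest allowed, and 558 sites with 7 such mice were left out.

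In mammals, methyl groups are attached to the cytosine of CpG dinucleotides, and a maintenance methyltransferase copies the pattern when cells divide. CpG islands (CGI), stretches rich in CpG that often hold promoters, are mostly unmethylated, whereas most CpG elsewhere are methylated. With age the pattern becomes less sharp, with gains at islands and losses at methylated sites outside them, and this is called methylation drift. Blood is renewed throughout life from stem cells, so drift in those cells is passed on to all blood lineages.

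The assay was DREAM, a sequencing method based on a pair of restriction enzymes, in which SmaI cuts CCCGGG only when its CpG is unmethylated and XmaI then cuts what is left. Depth ranged from 6932818 to 51612805 reads in AL-young mice and from 7227589 to 14793749 reads in CR-old mice. A site with 50 methylated of 100 reads has a 95% Wilson interval from 40.4 to 59.6%, and at 100 reads a count of 0 allows a level of up to 3%. Raw methylation is the share of methylated reads, with 0.5 reads added to the methylated count and 1 to the total. Adjusted methylation is the authors' value after a correction from DNA standards of known methylation that were added to each sample. That correction multiplied the odds of methylation by 1 factor per mouse, which was 0.896 to 1.13 in AL-young mice, 0.885 to 1.09 in 4 CR-old mice and 1.80 in CR-old 06, a female. CR-old 06 therefore stood apart among the 10 compared mice, and results are given with and without it where it moved them. A single factor did not bring all its standards to the level of the other mice. The standard Kan_1 was at 22.5% after correction against 32.2 to 36.4% in the other 9, and Gfp_1 at 56.4% against 37.6 to 42.2%. In AL-old mice the factor ranged from 0.872 to 3.96, and in 3 of them (3.19, 2.29 and 3.96) it was above that of CR-old 06. Raw AL-old levels and read tests over all 17 mice carry these factors uncorrected, and their part in those values was not tested.

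The sequences of 7 sites that differed between CR-old and AL-young mice are printed with 57 bases on either side, to show the CpG content around sites of either direction. All are on the plus strand of NCBIM37 (mm9), and capitals mark the CCCGGG whose central CpG was measured. The first 4 were higher in CR-old mice and lie in a coding exon of Mn1 (chr5:111849693-111849812), an intron of Ltbp3 (chr19:5756881-5757000), an intron of Runx3 (chr4:134686995-134687114) and a coding exon of Tcfl5 (chr2:180376984-180377103).
Mn1: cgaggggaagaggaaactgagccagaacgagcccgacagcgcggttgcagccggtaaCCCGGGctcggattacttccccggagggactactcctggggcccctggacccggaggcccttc
Ltbp3: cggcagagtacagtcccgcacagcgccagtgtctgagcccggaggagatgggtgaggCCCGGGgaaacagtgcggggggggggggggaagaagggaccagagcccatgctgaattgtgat
Runx3: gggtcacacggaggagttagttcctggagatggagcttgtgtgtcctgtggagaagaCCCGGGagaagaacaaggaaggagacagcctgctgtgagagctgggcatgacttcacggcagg
Tcfl5: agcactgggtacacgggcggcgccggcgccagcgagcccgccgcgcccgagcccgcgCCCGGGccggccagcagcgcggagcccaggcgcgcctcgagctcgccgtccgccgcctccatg
These windows hold 10 (Mn1), 6 (Ltbp3), 3 (Runx3) and 23 (Tcfl5) CpG in 120 bases.

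The other 3 were lower in CR-old mice and lie upstream of AC123530.1 (chr10:60664396-60664515), a gene model known only by its clone name, and in introns of Scml4 (chr10:42619726-42619845) and Sorcs2 (chr5:36489853-36489972).
AC123530.1: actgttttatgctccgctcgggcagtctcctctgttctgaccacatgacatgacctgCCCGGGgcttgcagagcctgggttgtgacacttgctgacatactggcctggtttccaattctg
Scml4: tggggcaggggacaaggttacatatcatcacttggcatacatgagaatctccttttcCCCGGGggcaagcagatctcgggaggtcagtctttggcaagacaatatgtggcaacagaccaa
Sorcs2: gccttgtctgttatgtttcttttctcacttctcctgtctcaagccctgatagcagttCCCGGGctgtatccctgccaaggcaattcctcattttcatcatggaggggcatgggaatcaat
They hold 3 (AC123530.1), 2 (Scml4) and 1 (Sorcs2) CpG in 120 bases, and that 1 CpG of Sorcs2 is the measured one.

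Losses outside CpG islands were the larger part of what separated CR-old from AL-young mice. In the test of methylated and unmethylated reads (edgeR, adjusted p under 0.05 and raw group means at least 2 points apart, which defines a called site), 144 sites (0.852%) were higher and 1129 sites (6.68%) were lower in CR-old mice, or 7.53% in either direction. The sites that were higher had a median of 2.56% raw methylation in AL-young, 7.17% in CR-old and 21.2% in AL-old mice. The sites that were lower had medians of 94.8, 86.0 and 81.6%. Most differences were small, and 29 of the higher and 175 of the lower sites differed by 20 points or more.

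On adjusted methylation, limma called 125 sites (0.739%) higher and 436 sites (2.58%) lower, and 81 higher and 373 lower sites were called by both tools. Among the 15641 sites with full depth, every CR-old mouse lay above every AL-young mouse at 193 sites (1.23%) in raw and 311 sites (1.99%) in adjusted methylation, and below at 1117 sites (7.14%) and 665 sites (4.25%). In both measures together this held for 178 sites (1.14%) above and 575 sites (3.68%) below. Without CR-old 06, edgeR called 404 higher and 2532 lower sites, with a dispersion of 0.0344 in place of 0.0734, and leaving out CR-old 19 gave 497 lower sites, the fewest with any mouse left out. With the correction factor as an offset, 146 higher and 586 lower sites were called. When the 7 AL-old mice were added to the edgeR fit, the dispersion was 0.287 and 0 sites passed in edgeR, with 310 higher and 868 lower sites at an unadjusted p under 0.05, and limma on all 17 mice called 2 higher and 3 lower sites. The limma counts over the 10 mice also moved, to 258 higher and 1984 lower sites without CR-old 06, and to 50 to 72 higher and 177 to 273 lower sites without any 1 AL-young mouse. In that edgeR fit, which shares the AL-young mice, 650 sites (3.84%) were higher and 1010 (5.97%) lower in AL-old than in AL-young mice.

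**Figure D1:**
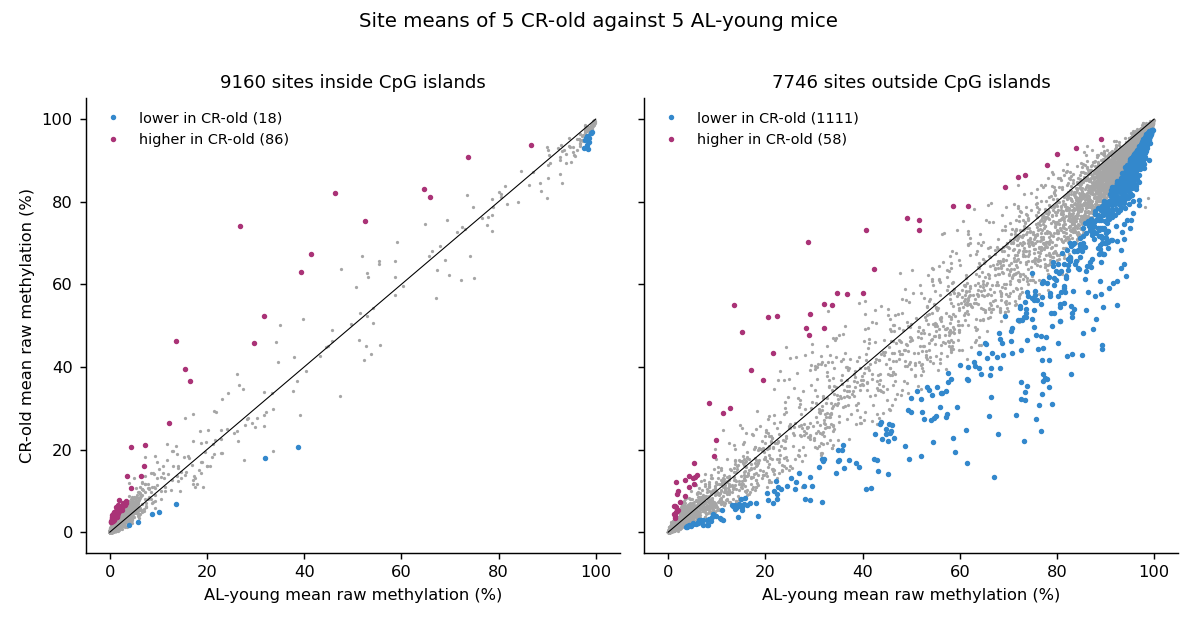
Mean raw methylation of the 5 CR-old mice (vertical axis, %) against that of the 5 AL-young mice (horizontal axis, %) at 9160 sites inside and 7746 sites outside CpG islands, 1 point a site, with the line of equality. Called sites are coloured, and the 1111 lower sites outside islands form a band under the upper end of the line, whereas the 86 higher sites inside islands gather near the origin.

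The 2 directions fell in different parts of the genome. Inside CpG islands 86 of 9160 sites (0.939%) were higher and 18 (0.197%) lower, against 58 (0.749%) and 1111 (14.3%) of 7746 sites outside. The AL-young mean was 2.43% inside islands and 59.5% outside, and a site under 2% cannot fall by the 2 points that a call needs. In island promoters, which reach from 1000 bp upstream of a start of transcription to 500 bp downstream, 54 of 7113 sites were higher and 2 lower. In island parts of gene bodies 26 of 1525 sites (1.70%) were higher, the largest share of the 6 contexts. Outside islands the share of lower sites was 5.57% in promoters, 16% in gene bodies and 17.5% between genes. It was 4.19% on island shores, up to 2000 bp from an island, and 18.1% farther away.

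The share of losses was also graded by local CpG content, and so was the starting level. The AL-young mean was 82.9% with fewer than 5 CpG in 500 bp and 1.45% with 40 or more. Of sites at 0 to 5% in AL-young mice 0.0562% were lower. Of those at 90 to 100%, 22.8% were lower and 0 were higher. CpG content apart from the starting level was not tested. Of sites with fewer than 5 CpG in 500 bp, 27.1% were lower and 0 were higher in CR-old mice. With 5 to 9 CpG the lower share was 18.7%, with 10 to 19 it was 14.2%, with 20 to 29 it was 2.56%, and with 40 or more it was 0.0605%. The higher share lay between 0.596 and 1.01% in every class from 5 CpG upward. Neighbours within 1000 bp were read as pairs with a called site. Of 275 pairs at higher sites, the neighbour had a higher adjusted mean in CR-old mice in 90.5%. Of 1156 pairs at lower sites, it had a lower one in 92.0%. In 24 and 38.2% of these pairs the neighbour was itself called in the same direction. The shares over all sites, 43.4 and 56.2%, were not matched for context. The median adjusted difference was -1.60 points outside islands and 0.02 points inside.

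**Figure D2:**
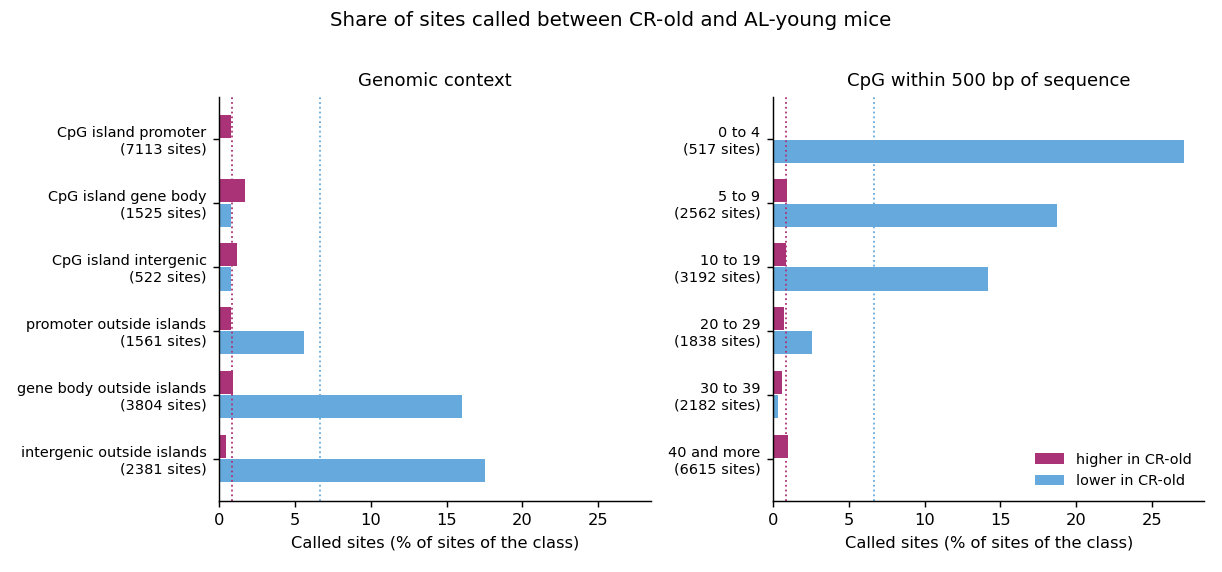
Share of sites called higher or lower in CR-old than in AL-young mice (horizontal axis, % of the sites of a class), by genomic context on the left and by the number of CpG in 500 bp on the right, with the shares over all sites as dotted lines. Lower sites rise from 5.57% in promoters outside islands to 17.5% between genes, and from 0.0605% to 27.1% as CpG become sparser.

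To see what restricted mice carry at sites that vary among AL-old mice, a choice that used none of the compared mice, means were taken over 3125 sites. At these sites adjusted methylation had a standard deviation (SD) above 10 points among the AL-old mice. The correction left AL-old mice apart even at added standards, with Gfp_1 from 42.8 to 66.8% after correction. The SD can therefore hold correction error as well as drift, and its part was not tested. At sites near 0% such an SD requires some high AL-old mice. The choice itself therefore raises AL-old means in islands, and their distance from CR-old means is a description only. Over all retained island promoter sites the AL-old mean was 2.59%. In island promoters (456 such sites) the mean was 4.13 ± 0.184% (SD, n = 5) in AL-young, 5.52 ± 0.690% (n = 5) in CR-old and 20.1 ± 12% (n = 7) in AL-old mice. The CR-old mice had 5.48, 6.69, 5.29, 4.88 and 5.27%, each above the highest AL-young mouse at 4.35%. They rose by 1.39 points (exact permutation test, two-sided, p = 0.00794, adjusted p = 0.0119 over 6 contexts, the smallest p that 5 against 5 allows being 0.00794).

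Island sites in gene bodies (239 sites) were at 20.6 ± 0.488% in AL-young and 23.1 ± 0.687% in CR-old mice, against 30.5 ± 7.70% in AL-old mice, and rose by 2.48 points (exact permutation, adjusted p = 0.0119). Island sites between genes (82 sites) rose by 1.00 points, from 11.5 to 12.5% against 25.4% in AL-old mice (exact permutation, adjusted p = 0.0238), and this call was lost without AL-young 15, 16, 29 or 30 (differences from 0.904 to 1.01 points). CR-old 06 had the highest value of the CR-old mice in the 3 island contexts, and without it the 3 gains were 1.10, 2.23 and 0.619 points (exact permutation, adjusted p from 0.00952 to 0.0317). On raw methylation the gains were 1.11, 1.955 and 0.647 points, with exact permutation adjusted p of 0.0238, 0.0952 and 0.183.

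Outside islands the restricted mice were below the young ones at such sites. Promoters (279 sites) fell by 2.82 points, from 47.2 ± 0.992 to 44.3 ± 0.846%, and AL-old mice had 42.9 ± 2.21% (exact permutation, adjusted p = 0.0119). Gene bodies (1201 sites) fell by 4.32 points, from 67.8 ± 1.25 to 63.4 ± 2.34%, beside 60.7 ± 5.45% in AL-old mice (adjusted p = 0.0238, exact permutation). Intergenic sites (868 sites) fell by 5.03 points, from 67.5 ± 1.31 to 62.5 ± 2.02%, beside 59.4 ± 5.06% (adjusted p = 0.0119, exact permutation). In gene bodies 4 CR-old mice lay between 60.9 and 63.3% and CR-old 06 at 67.3%, inside the AL-young range. Without CR-old 06 the 3 losses were larger, and the means fell by 3.04, 5.28 and 5.78 points.

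**Figure D3:**
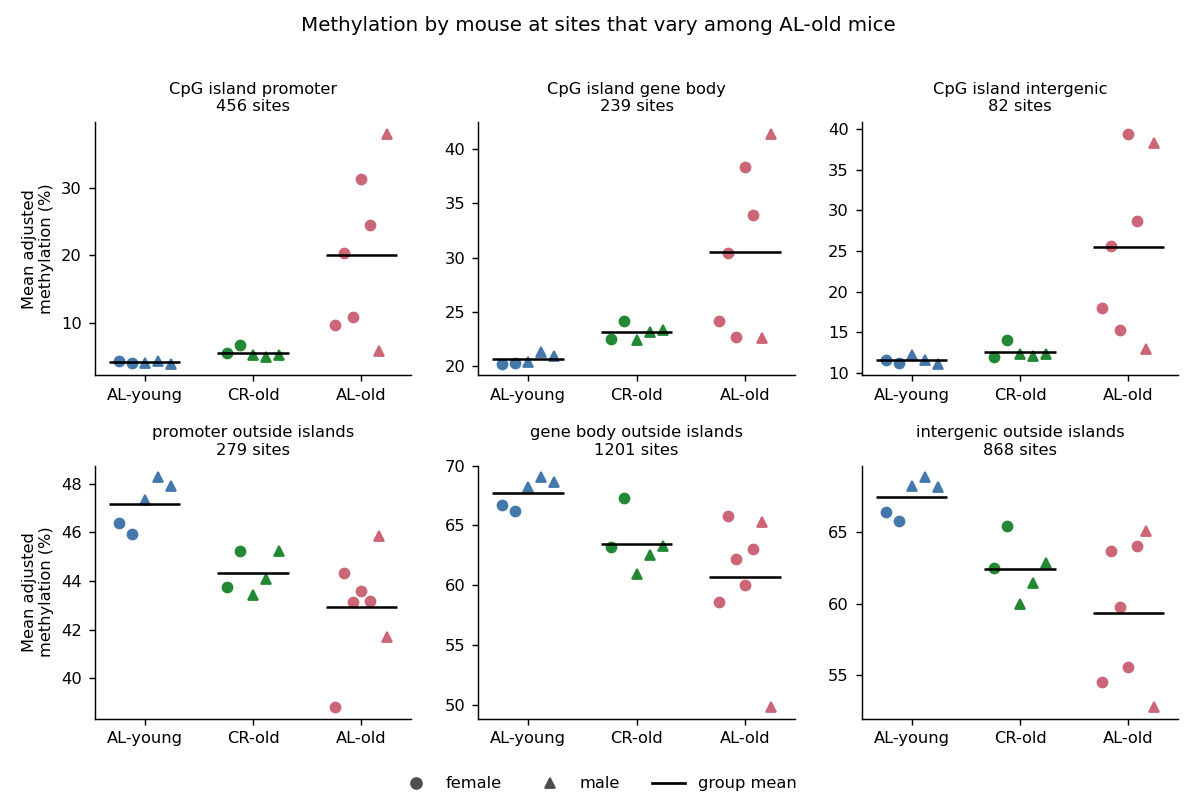
Mean adjusted methylation (%) of each mouse over the sites with an SD above 10 points among AL-old mice, by genomic context, with circles for females, triangles for males and bars for group means; the vertical scales differ and do not start at 0. CR-old island promoters lie from 4.88 to 6.69%, all above the AL-young mice, while 6 of the 7 AL-old mice lie at 9.71% or more and 1 at 5.84%. Outside islands all CR-old mice but CR-old 06 in gene bodies lie below the AL-young mice.

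Over all retained sites the shifts were smaller. Island promoters rose from 0.938 to 1.10% and island gene bodies from 8.25 to 8.70% (exact permutation, adjusted p = 0.0317 and 0.0238). Outside islands, promoters fell by 0.976, gene bodies by 2.85 and intergenic sites by 3.42 points (exact permutation, adjusted p = 0.0238, 0.0381 and 0.0357). Both island calls were lost on raw methylation (0.108 and 0.270 points, exact permutation adjusted p = 0.369 and 0.467), and all 5 were lost for medians over sites and at a minimum of 500 reads. At 500 reads the 3 differences outside islands were -0.485, -1.34 and -1.74 points (exact permutation, adjusted p = 0.317, 0.676 and 0.676). The gene body call outside islands was also lost without AL-young 29 or 30 or CR-old 19 or 20 (differences from -2.70 to -2.34 points). In the class of island sites below 5% in AL-young mice and variable among AL-old mice (585 sites), which used the AL-young values and is given with no test, means were 1.62 ± 0.154, 2.88 ± 0.532 and 17.3 ± 12.3% in AL-young, CR-old and AL-old mice. In the matching class of non-island sites above 90% (637 sites) they were 94.4 ± 0.593, 89.8 ± 2.05 and 80.8 ± 9.13%. The AL-old means of both classes are moved by the choice of sites variable among AL-old mice.

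Restricted old mice also differed more from one another than young mice did. The mean absolute difference in adjusted methylation between 2 mice of a group was 1.17 points in AL-young and 2.52 points in CR-old mice over all sites, 0.404 and 0.601 points inside islands, and 2.08 and 4.8 points outside (exact permutation, adjusted p = 0.00794 in each). CR-old 06 differed from the other CR-old mice by 3.53 points, and the other 4 by 2.18 to 2.37 points. Without CR-old 06 the excess of CR-old over AL-young mice dropped from 1.35 to 0.680 points over all sites, with an adjusted p of 0.0794 (exact permutation).

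The CR-old mice also differed in which of them was extreme. At the 1080 lower sites with full depth in the CR-old mice, CR-old 06 was the highest of them in adjusted methylation at 68.0% of the sites and CR-old 19 the lowest at 39.6%. In raw methylation CR-old 06 was the highest at 42.6% of them and the lowest at 28.1%. At the 142 higher sites with full depth, CR-old 06 was the highest in adjusted methylation at 45.1%, and CR-old 22 at 33.8%. In raw methylation CR-old 06 was instead the lowest at 51.4% of these sites and the highest at 20.4%. In each sex taken alone, the males gave 339 higher and 2291 lower sites in edgeR, and the females 0, with 782 sites at an unadjusted p under 0.05. With 2 females a group, of which 1 is CR-old 06, sex and that mouse cannot be told apart. The CR-old females were 32 months old and the CR-old males 34 to 38 months, so sex and age cannot be told apart either. The difference between CR-old and AL-young mice itself differed between the sexes at 29 sites (0.172%, sex by group term in edgeR), among them sites of Sykb and Foxo3 described further on.

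Of the sites with the largest gains, the first was in an intron of Ltbp3, which encodes a protein that binds latent TGF-beta in the extracellular matrix. At this island site (chr19:5756938-5756943) raw methylation was 25.2, 26.5, 28.9, 29.7 and 23.3% in the AL-young mice and 72.4, 56.8, 74.6, 83.7 and 83.6% in the CR-old mice. The groups were far apart, and the mean went from 26.7 ± 2.64 to 74.2 ± 11% (SD, n = 5 each), or 3.08 ± 0.38 (SE) as a log2 odds ratio (adjusted p = 2e-06 in edgeR and 0.0026 in limma). AL-old mice ranged from 19.5 to 77.1% around a mean of 48.1% in raw methylation. In adjusted methylation they ranged from 41.3 to 93.0% around a mean of 58.1%, beside a CR-old mean of 76.9%.

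Mn1, a transcriptional regulator known as a fusion partner in myeloid leukaemia, held the second largest gain at a coding exon site (chr5:111849750-111849755, 365 to 2354 reads a mouse). AL-young mice had 11.3, 14.1, 11.6, 14.6 and 15.9%, and CR-old mice 53.4, 48.5, 49.9, 67.0 and 56.4%. No value overlapped, and the means were 13.5 ± 2.02 and 55 ± 7.37% (log2 odds ratio 2.99 ± 0.34, edgeR adjusted p = 7e-07). The AL-old mean was 20.8 ± 18.1% (n = 7), lower than the CR-old mean (edgeR over 17 mice, adjusted p = 0.015, in a comparison that shares the CR-old mice and calls 270 sites (1.6%) higher and 297 (1.76%) lower in CR-old than in AL-old mice). In adjusted methylation, which that test did not use, AL-old mice were at 29.5 ± 24.1% and CR-old mice at 58.0 ± 7.20%.

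Runx3, a transcription factor of T and natural killer cell development, gained at an intron site outside islands, 10487 bp past its start (chr4:134687052-134687057). AL-young mice had 18.2, 11.7, 18.6, 13.1 and 14.2%, and CR-old mice 43.7, 23.8, 50.5, 57.8 and 66.8%, with CR-old 06 nearest to the young mice (edgeR adjusted p = 0.00017). A second intron site of Runx3 went from 8.41 ± 2.66 to 31.2 ± 16.3%, although CR-old 06 at 8.31% lay inside the AL-young range in raw methylation (edgeR adjusted p = 0.0019). In adjusted methylation it had 14.1%, above the highest AL-young mouse at 12.6% (limma adjusted p = 0.049). In raw methylation the AL-old means of both sites were 42.6 and 24.1%.

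A pair of gains lay far from genes, 99435 bp before Nrbf2, a component of the autophagy kinase complex, and 95185 bp before Id2, an inhibitor of helix-loop-helix factors with a role in natural killer and innate lymphoid cells. The first rose from 49.2 ± 7.09 to 76.0 ± 9.55% and the second from 51.6 ± 6.60 to 75.5 ± 5.73% (edgeR adjusted p = 0.0027 and 0.0035). The other gains among the 12 largest were in a coding exon of the semaphorin gene Sema6c (39.4 to 63.1%), in 8430419L09Rik (32.0 to 55.2%), in AI661453 (52.6 to 75.3%), near the kinase gene Sik1 (33.6 to 54.9%), in the promoter island of Fam83g (31.7 to 52.4%), in a coding exon of Tcfl5, a helix-loop-helix factor gene (16.6 to 36.6%), and in an intron of Ror2, a Wnt receptor (29.0 to 47.8%). For 21 of the 24 largest gains and losses the edgeR call held with any 1 mouse left out. The 24 were chosen for large differences without overlap between groups, which favours keeping a call. Of all 75 named called sites, 53 held in this way. In edgeR the call for the site near Sik1 was lost without AL-young 28 or 29 or CR-old 19 or 22, that for Fam83g without AL-young 28, 29 or 30 or CR-old 20 or 22, and that for Ror2 without any of the mice other than CR-old 02 and 06. In limma the site near Nrbf2 (adjusted p = 0.053) and 8430419L09Rik (adjusted p = 0.089) did not pass.

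**Figure D4:**
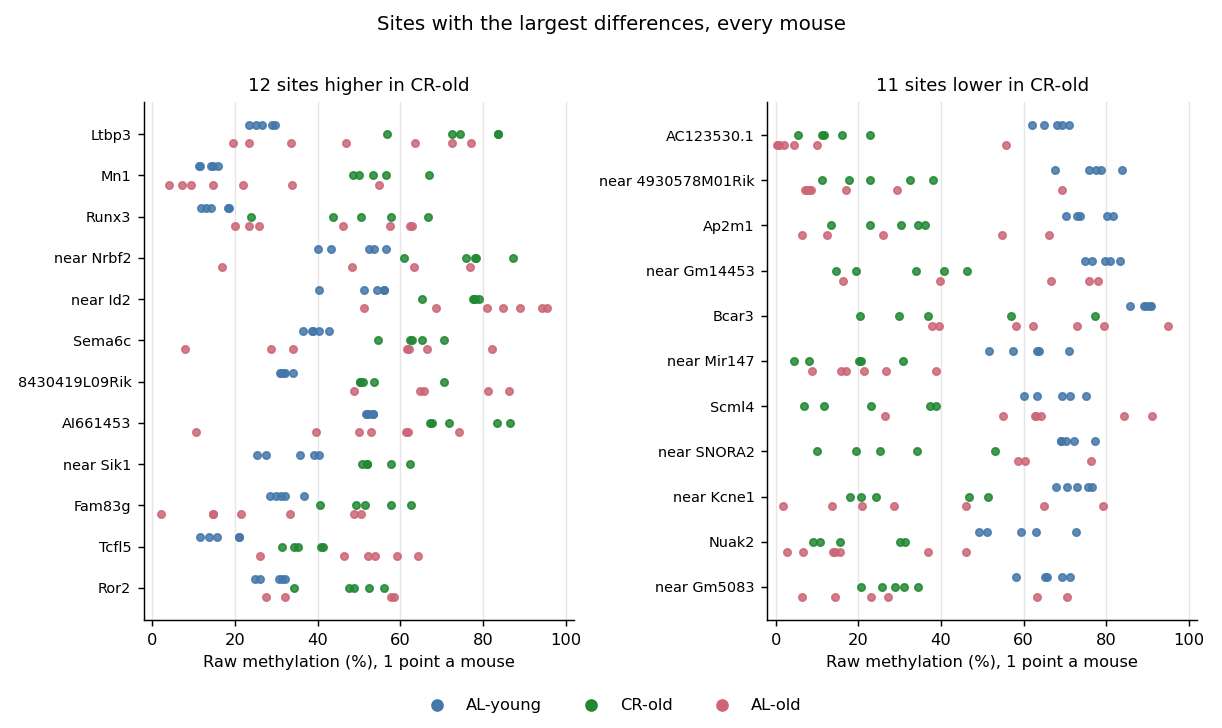
Raw methylation (horizontal axis, %) of every mouse with at least 100 reads at the 12 sites with the largest gains and 11 of the 12 with the largest losses in CR-old against AL-young mice, 1 point a mouse, 3 rows of points a site from AL-young (top) to AL-old (bottom). At each site all CR-old points lie on 1 side of all AL-young points, as the rule for choosing them required, and AL-old points range, for example, from 4.09 to 54.9% at Mn1.

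A total of 15 genes had 3 or more called sites in a single direction, 4 of them higher (Mn1, Ltbp3, Sema6c and Hic1) and 11 lower. In Mn1, 5 of 9 sites were higher, all in coding sequence between 2234 and 3534 bp from the start. Next to the site given above, those at 2582 and 2775 bp went from 15.5 to 39.5% and from 13.7 to 46.2% (edgeR adjusted p = 0.00069 and 3.6e-05). The remaining 4 sites, from 193 bp before to 433 bp after the start, were at 0.334% or less in AL-young mice. The site at 433 bp was at 0.334 and 1.27% with an edgeR adjusted p of 0.011, but under the 2-point limit.

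Of the 9 sites of Ltbp3, 4 were higher, from 10302 to 16188 bp past the start, and the 2 sites nearest the start had 0.688 and 1.22% in AL-young and 0.798 and 1.09% in CR-old mice. At the site 15832 bp from the start CR-old mice had 69.3, 48.9, 67.6, 81.0 and 84.2%, against 26.7 to 32.8% in AL-young mice and 12.7 to 61.2% in AL-old mice. That site was also higher in CR-old than in AL-old mice in a test on uncorrected reads (edgeR over 17 mice, adjusted p = 0.022), and the part of the AL-old correction factors in this was not tested. At 10302 bp CR-old 06 had 29.0%, inside the AL-young range, and the call was lost without CR-old 20 or 22. Hic1, a transcriptional repressor and tumour suppressor often methylated in cancer, had 3 higher of 9 sites with differences of at most 3.75 points.

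**Figure D5:**
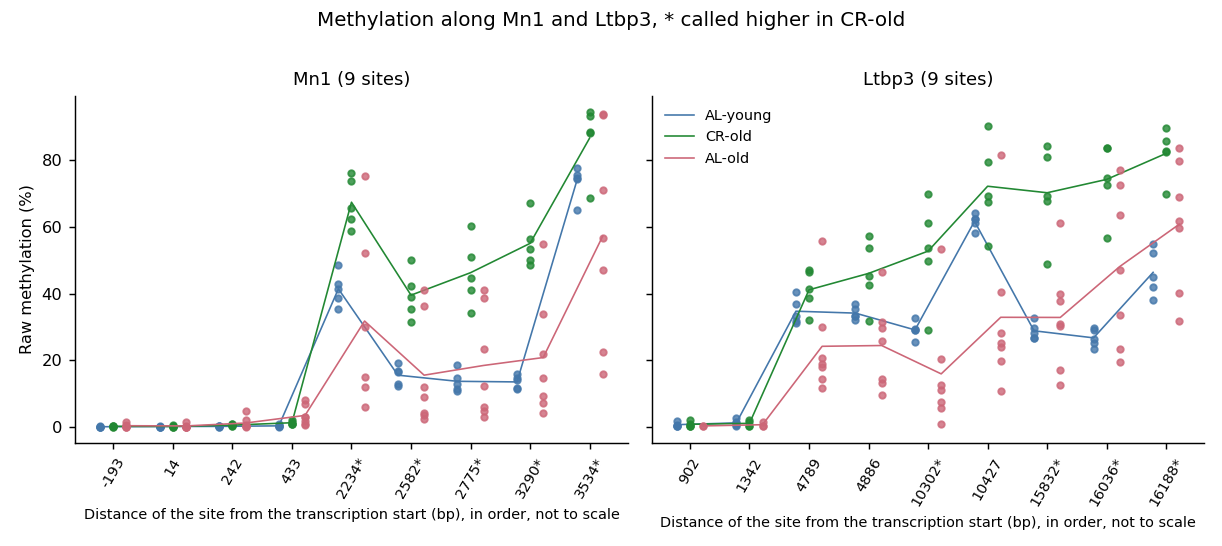
Raw methylation (vertical axis, %) of every mouse at the 9 retained sites of Mn1 and of Ltbp3, ordered by distance from the transcription start (bp, not to scale), with lines through the group means and an asterisk at called sites. CR-old points separate from AL-young points from 2234 to 3290 bp in Mn1 and at 15832 bp and beyond in Ltbp3, while at sites within 433 bp of the Mn1 start AL-young and CR-old mice have 2.23% or less.

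The largest loss was 701 bp upstream of AC123530.1 (chr10:60664453-60664458). AL-young mice had 65, 70.9, 62.2, 68.1 and 69.4%, and CR-old mice 22.8, 11.6, 15.9, 11.3 and 5.31%. The means were 67.1 ± 3.52 and 13.4 ± 6.48%, and 6 of the 7 AL-old mice were at 10.1% or less (log2 odds ratio -3.86 ± 0.38, edgeR adjusted p = 5.8e-08, limma adjusted p = 0.0043).

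Among the next losses, the intron of Ap2m1, a subunit of the clathrin adaptor AP-2, fell by 48.3 points. An intron site of Bcar3, a signalling adaptor, went from 89.2 ± 2.00 to 44.3 ± 22.8%, with CR-old 06 highest at 77.2%. The intron site of Nuak2, an AMPK-related kinase, fell by 39.7 points. The other losses of this size lay near 4930578M01Rik, Gm14453, Mir147 (a microRNA gene), SNORA2, Kcne1 and Gm5083, with CR-old means of 16.8 to 32.2% and AL-young means of 61.4 to 79.1%. All of these sites, AC123530.1 included, passed in edgeR with any 1 mouse left out, and in limma those at Bcar3, Scml4, SNORA2 and Kcne1 had adjusted p from 0.054 to 0.067 and did not pass.

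The next 5 called losses were named because the AL-old mean lay inside the AL-young range or on its other side in raw methylation, so AL-old levels there are a description with no test. In an intron of Scml4, a Polycomb-like gene, AL-young mice had 60.1, 75.1, 63.2, 71.3 and 69.4%, and CR-old mice 37.4, 38.9, 23.2, 11.8 and 6.94%. The AL-old mean was 63.9%. An intron site of Gfod1 was at 73.4% in AL-young, 32.0% in CR-old and 78.9% in AL-old mice. Intron sites of Pebp4 (78.3, 35.2 and 76.9%) and of Slc41a3, a magnesium transporter family gene (73.5, 33.8 and 74.2%), and a site near Gm7097 (77.1, 36.6 and 74.5%) are the other 3. CR-old 06 was the CR-old mouse nearest to the young ones at each of the 5 sites, with 73.5% at Pebp4, 66% at Slc41a3 and 61.9% near Gm7097. None of these 5 passed in limma on adjusted methylation (adjusted p from 0.059 to 0.16).

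Genes with several losses included Sorcs2, a sortilin family receptor, with 4 of 6 sites lower. Its site 121216 bp from the start went from 88.8 ± 0.629 to 69.5 ± 5.77%, beside 35.4% in AL-old mice in raw methylation (edgeR adjusted p = 0.00081, CR-old against AL-old adjusted p = 0.047 in edgeR on uncorrected reads). Of the 4 edgeR calls, 1 was kept in 2 and another in 8 of the 10 fits with 1 mouse left out. Bahcc1, which encodes a chromatin-associated protein, had 4 of 19 sites lower, 1 of which, 20159 bp from the start, went from 85.9 ± 2.12 to 63.3 ± 7.92%. For Bahcc1 1 of the 4 calls was kept in 2 of the 10 such fits. Epas1, a hypoxia-inducible transcription factor, Nedd4l, a ubiquitin ligase, and Itgb6, an integrin, had 3 lower sites each. Gm20388 (7 of 55 sites) is an annotation model that spans other genes and is named here only as the rule gave it.

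Gene lists were read against the 14003 sites at genes, of which 0.907% were higher and 5.06% lower. Hox genes, which set position along the body axis, had 2 higher and 1 lower of 31 sites. Hoxd11 in its promoter island had 0.220 to 1.00% in AL-young and 1.08 to 7.61% in CR-old mice (edgeR adjusted p = 0.013), and Hoxc5 went from 9.4 to 18.4% (adjusted p = 0.044, lost without any mouse other than CR-old 06). Hoxb4 had the lower site, at 96.2 and 83.0%. Developmental transcription factors had 3 higher and 1 lower of 348 sites (0.862 and 0.287%), of which 280 were in islands. The higher share is close to the 0.907% over all gene sites. In limma 7 of the 348 were higher and 2 lower, beside 111 higher and 260 lower of the 14003 gene sites. Tbx1, a factor of heart and pharyngeal development, rose from 1.36 ± 0.234 to 6.16 ± 2.65% in its promoter island (edgeR adjusted p = 0.0011), and Evx2 rose from 3.62% in the 3 AL-young mice with 100 reads to 13.5%, whereas Ebf3 fell by 9.69 points, a call lost without AL-young 15, 16, 29 or 30. The remaining site called higher in edgeR, at Irx1, went from 0.87 to 3.06%.

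Genes of Wnt, BMP, TGF-beta, FGF, hedgehog and Notch signalling had 3 higher and 8 lower of 208 sites (1.44 and 3.85%), with losses in introns of Notch2 (89.2 to 45.3%) and Fgfr2 (68.3 to 46.8%). At this Notch2 site CR-old 06 had 93.4%, inside the range of the 3 AL-young mice with 100 reads, and limma did not call it (adjusted p = 0.44). The Fgfr2 site passed in limma (adjusted p = 0.021), but its edgeR call was lost without AL-young 16, 28, 29 or 30. Neuronal receptors and ion channels had 2 higher and 8 lower of 168 sites (1.19 and 4.76%), with lower sites at Grik4, Cacng2 and Syt6. In limma these 3 did not pass (adjusted p = 0.31, 0.094 and 0.23), and in edgeR the Cacng2 call was lost without AL-young 15, 28 or 29 or CR-old 19 or 20. Tumour suppressors had 6 higher and 8 lower of 122 sites (4.92 and 6.56%). Of these, 3 were at Hic1, 2 at Runx3 and 1 at Epb4.1l3 (0.63 to 3.45%), and the Sept9 promoter outside islands was lower, at 92.3 and 70.4%. Imprinted genes had 2 higher and 0 lower of 53 sites (edgeR), and both calls, at Klf14 and Kcnk9, were lost when most single mice were left out.

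Blood lineage transcription factors had 3 higher and 6 lower of 117 sites (2.56 and 5.13%). Apart from Runx3 they included Zfpm1, a GATA cofactor, whose intron site went from 63.9 to 39.6% with CR-old 06 at 67.4% (limma adjusted p = 0.34). Immune receptors, cytokines and their signalling genes had 2 higher and 15 lower of 98 sites (2.04 and 15.3%), in 11 genes for the losses, while limma called 6 of these sites lower. Of the 98 sites 36 were in islands, against 8638 of the 14003 gene sites, and outside islands 14.3% of all retained sites were lower. Sykb, the annotation's symbol for the spleen tyrosine kinase gene, went from 77.0 to 33.5% in a coding exon, where CR-old mice had 36, 78.4, 20.7, 18.9 and 13.7%. In adjusted methylation CR-old 06 was at 86.8% there, above the highest AL-young mouse at 81.6%, and limma did not call the site (adjusted p = 0.18). Csf1r, the receptor that marks monocytes, had 62.3, 70.3, 53.6, 58.8 and 61.5% in AL-young and 34.9, 28.9, 25.3, 18.7 and 15.5% in CR-old mice at 1 site (edgeR adjusted p = 6.5e-05, limma adjusted p = 0.018). AL-old mice were at 30.1 to 62.9% there in raw methylation, but at 49.6 to 77.0% in adjusted methylation, with a mean of 60.7% beside 62.2% in AL-young mice. Nfatc2, a T cell activation factor, gained in an intron, from 20.5 to 52.1% with CR-old 06 at 24.2%, inside the AL-young range in raw methylation (edgeR adjusted p = 0.001). In adjusted methylation CR-old 06 had 36.6%, above the highest AL-young mouse at 27.3% (limma adjusted p = 0.018).

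Some further called sites of these lists were picked after their values were seen, for the role of the gene. Their levels are in raw methylation. Those of AL-old mice carry the correction factors of these mice uncorrected, and the part of the factors was not tested. Runx1, a regulator of blood stem cell formation, went from 4.31 to 10.95% at a gene body site, beside 42.4% in AL-old mice. Gata2, another stem cell factor, had 49.4% in AL-young and 29.6% in CR-old mice. Csf1, the ligand of the Csf1r receptor, was lower at 2 gene body sites, with 81.4 and 88.0% in AL-young, 55.5 and 72.3% in CR-old and 36.9 and 39.5% in AL-old mice. H2-Eb1, a class II antigen presentation gene, went from 95.4 to 83.3%, beside 52.6% in AL-old mice.

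In whole blood a different mixture of cells and a different methylation per cell cannot be told apart. Sites at blood cell marker genes were few, 14 sites in 6 of 32 listed genes, of which 0 were higher and 3 (21.4%) lower in edgeR, at Csf1r and at Itgam, which encodes the CD11b integrin of myeloid cells. In limma 1 of them was lower. The share of cell types in these results was not tested.

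Nutrient sensing and growth genes had 0 higher and 8 lower of 125 sites (6.40%) in edgeR. Foxo3, a transcription factor downstream of insulin signalling, had 2 lower intron sites. At one of them CR-old mice had 62.8, 77.4, 74.7, 57.9 and 54.1% against 81.7 to 94.0% in AL-young mice (edgeR adjusted p = 0.00069, limma adjusted p = 0.074). At the other, CR-old mice had 45.7, 78.2, 35.1, 21.9 and 10.5% against 49.3 to 72.4% in AL-young mice, with CR-old 06 above all of them (edgeR adjusted p = 0.036, limma adjusted p = 0.53). That edgeR call was lost without AL-young 16 or 29 or any CR-old mouse other than CR-old 06. Rheb, the activator of mTORC1, fell by 17.1 points in an intron, from 82.8 ± 1.27 to 65.7 ± 6.75%, beside 30.1% in AL-old mice in raw methylation (edgeR adjusted p = 0.011, CR-old against AL-old adjusted p = 0.031 in edgeR on uncorrected reads). Lipid, glucose and mitochondrial genes had 2 lower of 65 sites (3.08%), at Pfkfb4 (78.8 to 53.2%) and Hk1 (95.7 to 91.0%). Circadian genes had 2 lower of 44 sites (4.55%), at Rora and Per3. The calls for Hk1 and Per3 were lost when most single mice were left out, and those for Pfkfb4 and Rora held with any 1 mouse left out. In limma neither Pfkfb4 nor Rora passed (adjusted p = 0.12 and 0.16), and 0 circadian sites were called.

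DNA methylation and chromatin regulators had 0 higher and 4 lower of 157 sites (2.55%, edgeR), in Prdm16 (70.5 to 48.7% and 73.6 to 52.0%), Phc2 (35 to 17.1%), a Polycomb gene, and Dnmt3a (97.2 to 93.1%), the de novo DNA methyltransferase. Ribosomal protein genes, with 31 of 35 sites in islands, had 0 called sites in both edgeR and limma, with a median adjusted difference of 0.01 points against -0.01 over all gene sites. Clustered protocadherins had 2 sites, and neither passed in edgeR or limma.

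Of the 12 sites with the largest SD among AL-old mice, 6 in islands and 6 outside, 1 passed the test between CR-old and AL-young mice. Over all retained sites 7.53% were called in either direction, so this count does not set these sites apart. Their wide AL-old ranges follow from the choice. In islands, Oxt (oxytocin) was at 1.77 ± 0.656% in AL-young and 2.63 ± 1.90% in CR-old mice, with AL-old mice from 3.54 to 69.3%. The promoter of Rnf217, a ubiquitin ligase gene, was the exception among the 6 island sites, and rose from 0.656 ± 0.410 to 3.76 ± 1.81%, beside AL-old values from 2.17 to 83.3% (edgeR adjusted p = 0.0011). Sites near Fat1 and at Atp8a2, Sema5b and Cdh2 had CR-old means of 3.66, 6.06, 7.73 and 1.66% and AL-young means of 1.79, 7.41, 6.00 and 0.663%, and did not pass (edgeR adjusted p = 0.1, 0.6, 0.55 and 0.21). Without CR-old 06 the site near Fat1 passed. None of the 6 sites outside islands passed, at Zfpm1 and Scube1 and near Dhx35, Fam19a5, Gm3443 and Igkv4-81, with CR-old means of 50.5 to 87.4% and AL-young means of 42.7 to 92.4%, and the site near Igkv4-81 passed without CR-old 06.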

How the data were processed

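Whole blood DNA of 17 mice was digested with SmaI and XmaI, and the labels gave each mouse its group, age, sex and diet. The members and gene lists were chosen with earlier results of these data known. Per the labels and file headers, the authors deposited counts of methylated and unmethylated reads per CCCGGG site and methylation in percent, raw and adjusted by spiked standards. Mapping was to mm9 per the study's methods, and the submitters' processing notes name Bowtie2, SAMtools, mm9 and mm10. All sites lay on a CCCGGG of NCBIM37. The study's methods name several Illumina instruments for its mouse, monkey and human libraries together. No source used here says which mouse was run on which, or whether the mouse libraries differed in this.

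Site by site, edgeR 4.0.16 compared reads between groups by quasi-likelihood (R 4.3.3, 1 dispersion for all sites, Benjamini-Hochberg over 16906 sites), and limma 3.58.1 compared adjusted methylation on the logit scale, bounded at 0.5%, with values under 100 reads missing. DESeq2 1.42.0 was an alternative. On simulated data with known changes the code was tested first. Class means and spread used exact permutation over the 252 splits of 5 and 5, adjusted over 6 contexts or 3 site sets. Genes were from GENCODE M1, and CpG islands were called at 200 bp, 50% GC and an observed over expected ratio of 0.6. The 10 compared mice had 6932818 to 51612805 reads each, and intervals and floors cover counting error only. No mouse shares a number with another group, and p-values measure the spread between these mice. For the sex by group term the variance was in effect pooled over all sites. Its p-values therefore do not measure the spread between mice at a single site.

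Named sites were the 12 higher and 12 lower called sites with the largest raw difference among those with full depth and no overlap between groups in raw and adjusted methylation (1 a gene or per 10 kb), up to 3 called sites per gene list, the 6 island and 6 other sites with the largest SD among AL-old mice, up to 6 called sites not shared with the AL-old mean, and up to 6 genes with 3 or more called sites in 1 direction. Sequences were read from the NCBIM37 genome. Sema6c, Hic1, Epas1, Nedd4l and Itgb6 were named as multi-site genes after their counts were seen. Other called sites marked as such in the text were also picked after their values were seen. Of the 12 lower sites, 1 is not reported here.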

Additional observations from a re-analysis of the deposited data

Results flagged for a closer look

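In 196 groups of 5 mice tested for a single mouse apart from the rest (Dixon's criterion, which about 1 in 20 groups meets by chance), 9 held such a mouse, and in 6 of them it was CR-old 06. Among class means over all sites, AL-young 29 stood apart in island gene bodies at 8.53% and CR-old 06 in intergenic islands at 6.84%. At sites variable among AL-old mice, CR-old 06 stood apart in intergenic islands at 14.1%. In raw methylation CR-old 06 stood apart at Mn1 (68.7% at the site 3534 bp from the start), near Id2 (65.3%), at 8430419L09Rik (70.6%) and at Fgfr2 (27.4%). AL-young 28 stood apart at the same Mn1 site (65%) and AL-young 16 at Cacng2 (65.6%).

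The difference between CR-old and AL-young mice itself differed between females and males at 29 sites (0.172% of those tested, edgeR sex by group term, adjusted p under 0.05), with 12 higher and 17 lower in males relative to females. Of the sites named above these were Sykb (adjusted p = 0.027) and 1 intron site of Foxo3 (adjusted p = 0.027). At Sykb the CR-old females had 36 and 78.4% and the males 13.7 to 20.7%, while AL-young mice had 72.1 to 79.7%. At Foxo3 the CR-old females had 45.7 and 78.2% and the males 10.5 to 35.1%. The higher value of each female pair is that of CR-old 06. CR-old females were also younger than CR-old males, so sex and age cannot be told apart here.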

How the results depend on the processing

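No paired analysis was possible because the groups share no replicate number.

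Counts of called sites are given as higher and lower. In edgeR they were 28 and 208 at a 500-read minimum, 390 and 2803 with the correction factor as an offset and CR-old 06 left out (chosen after seeing the data), 0 and 0 with all 17 mice (310 and 868 at an unadjusted p under 0.05), 0 and 0 in females (782 at an unadjusted p under 0.05), 339 and 2291 in males, and 586 lower with the offset alone. With no least difference there were 281 higher sites, and with 5 points 71. In limma they were 29 and 76 at 500 reads, 2 and 3 with all 17 mice, 71 higher at 5 points, and 775 lower on raw methylation. At 500 reads fewer sites were tested (4442).

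With 1 mouse left out, edgeR gave 93 to 404 higher and 497 to 2532 lower sites, and limma 50 to 258 and 177 to 1984. Lower edgeR counts moved by over 1.5 times without AL-young 15 (745), 16 (660), 28 (700) or 29 (657) and without CR-old 06, 19 or 20 (694), and higher ones without AL-young 30 (93) and CR-old 06. Limma counts moved without any AL-young mouse (50 to 72 higher, 177 to 273 lower), without CR-old 06 (258 and 1984), CR-old 20 (74 and 218) and, for lower sites, CR-old 19 (229).

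Class means over all sites are given in points for island promoters, island gene bodies and intergenic islands, then promoters, gene bodies and intergenic sites outside. Calls were lost on raw methylation (0.108, 0.270, 0.0634 and, for promoters outside, -1.31), at 20 reads (island promoters 0.161, intergenic islands 0.297), at 500 reads (0.127, 0.407, 0.321, -0.485, -1.34, -1.74), for medians (0.008, 0.036, 0.083, -0.019, -4.35, -5.09), and within females (0.181, 0.548, 0.305, -0.472, -0.527, -0.977) and males (0.149, 0.376, 0.148, -1.31, -4.40, -5.04), where 2 and 3 mice a group cannot go below p = 0.333 and 0.1 in an exact permutation test. Leaving out 1 mouse gave 0.135 to 0.262 points in intergenic islands and -3.60 to -2.34 in gene bodies outside. Called there were 1 and 6 of 10 such fits.

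At sites variable among AL-old mice, calls were lost on raw methylation (island gene bodies 1.955, intergenic islands 0.647), at 500 reads (intergenic islands 1.21, gene bodies outside -2.03, intergenic outside -3.76), in females (1.91, 3.07, 1.64, -1.66, -1.22, -2.11) and in males (1.05, 2.09, 0.582, -3.59, -6.39, -6.97). Intergenic islands ranged from 0.619 to 1.16 with 1 mouse left out. SD limits of 5 and 20 points, stricter islands, medians and full-depth sites kept all 6 calls.

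The excess spread of CR-old mice was 2.02, 0.292 and 4.10 points (all, island and other sites) in females and 0.763, 0.104 and 1.52 in males, neither testable at this size, and 0.164 for islands at 20 reads (call lost). With 1 mouse left out it was 0.680 to 1.58, 0.117 to 0.227 and 1.33 to 3.19, and the lowest values, without CR-old 06, did not pass.

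Of 75 named called sites, 71 kept their edgeR call with DESeq2, 71 with sex as a covariate, 72 with thinned reads, 67 with the offset, 42 in limma and 0 with all 17 mice, and no direction turned. The cause of each change was not tested.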
